A study of Poecilia latipinna with 15 samples.

Results

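The 200 most abundant brain transcripts of the sailfin molly (*Poecilia latipinna*) are described here. They were taken as the transcripts with the highest mean level over 15 females, in TPM, a unit explained below, out of 31813 transcripts in the deposited files. Each library held the whole brain of 1 female. All 15 were sexually experienced fish from a semi-natural on-campus pond, isolated before a non-contact choice trial, and no allele or agent was part of the design. In the male-interaction context (8 females) the stimuli were a large and a small male, and in the female-interaction context (7 females) a large and a small female. There was no non-social control, and the same stimulus fish were used repeatedly. The labels give each female a number between 1 and 19, which is used below to name her.

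In an mRNA library most transcripts are rare and a small number take up much of the sequencing. The estimated count of a transcript is the number of reads that a quantification program assigns to it, so a long transcript collects more reads than a short one at the same number of molecules. TPM divides that count by the effective length, the number of positions at which a fragment can start, and scales the result to a fixed total per library. Levels of different transcripts are therefore compared here in TPM, and reads in estimated counts.

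None of the 31813 identifiers of these files could be paired with a gene name, because the gene table used here held no Ensembl identifiers. No function is given for any transcript, and neither the labelled tissue nor other cell types could be checked against marker genes. Because libraries were made from whole brains, a change in the number of cells of a type and a change in RNA per cell cannot be told apart. The members were chosen on TPM, so their levels, shares and lengths are a description with no test.

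Every member passed the filter used for the tests, a TPM above 2 in 3 or more females, which 21671 transcripts passed in all. Estimated counts per library lay between 3424641 and 10555933. The members received between 603925 and 2218426 of these.

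The 200 transcripts held 40.4% of all TPM in the median female, with a range of 37.4% to 45.1%. Their share of all estimated counts was smaller, 18.9% in the median female (17.2% to 22.7%). In the male-interaction context the share of TPM was 40.7% ± 2.31 (SD, n = 8), and in the female-interaction context 41.2% ± 2.55 (SD, n = 7). The females of both contexts covered nearly the same range, 38.5% to 45.1% in the male-interaction context and 37.4% to 43.9% in the female-interaction context. The share of estimated counts was likewise close, 19.3% ± 1.83 (SD, n = 8) in male-interaction females and 19.6% ± 1.89 (SD, n = 7) in female-interaction females.

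**Figure D1:**
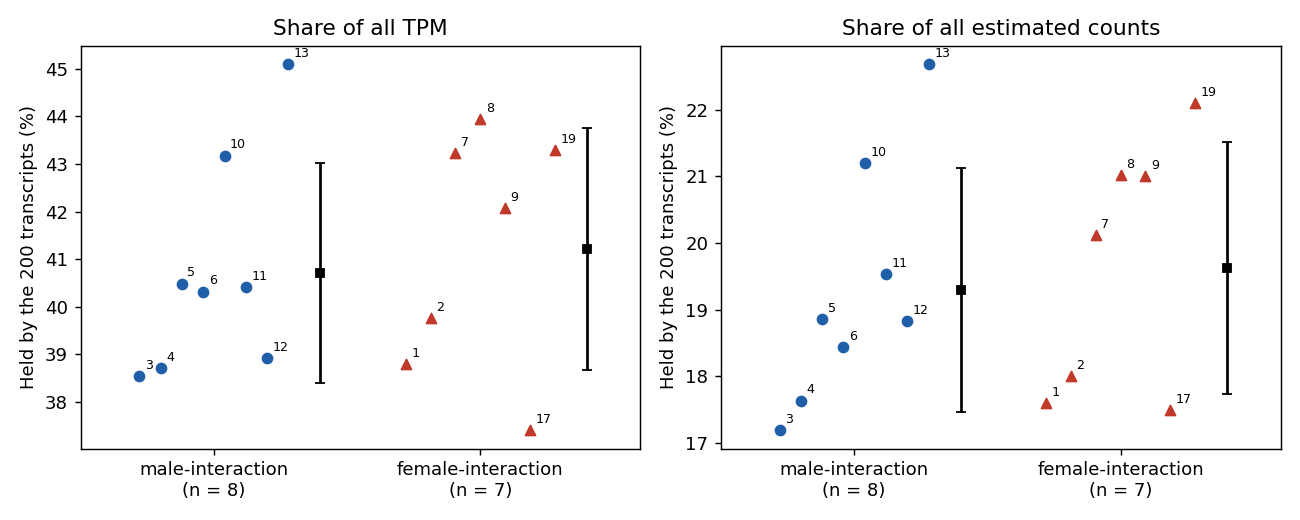
Share of all TPM (left, %) and of all estimated counts (right, %) held by the 200 transcripts in each female, with the male-interaction context (circles) left of the female-interaction context (triangles). Numbers are fish numbers, and squares with bars are the mean and SD (n = 8 and n = 7). Both axes start above 0, and the females of the contexts overlap in both panels.

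The plot of shares by female shows that females 13 and 19, from different contexts, had the highest shares of counts. It also shows that female 17 was lowest for TPM and female 3 for counts. Among females 1 to 8 the share of counts had a median of 18.2% (17.2% to 21.0%), against 21.0% (17.5% to 22.7%) among females 9 to 19, and these ranges overlap. A median of 14.9% of TPM came from the 10 highest transcripts, which received a median of 3.04% of counts. The 200 transcripts ranked next, down to rank 400, held a median of 8.79% of TPM and 7.61% of counts. To reach 50% of TPM took 414 transcripts in the median female (290 to 507), and to reach 50% of estimated counts took 1384 (1160 to 1481).

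The list was largely the same from female to female. Of each female's own 200 highest transcripts, between 169 (female 17) and 188 (female 7) were members. Every female had the same 135 members in her own list, while 10 members were in the lists of 7 or fewer females. Over all females 288 transcripts entered at least 1 list, and 88 of these were not members.

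Mean TPM exceeded 1000 in 118 members, 5000 in 13 and 10000 in 5. At the lower end of the list the levels changed little. The last members were ENSPLAT00000005264.1 with a mean of 618 TPM and, at rank 200, ENSPLAT00000019536.1 with 612 TPM. ENSPLAT00000001378.1 and ENSPLAT00000013432.1, just outside, averaged 605.5 and 605.4 TPM.

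The 5 highest transcripts differed widely in length and in reads. Rank 1, ENSPLAT00000008376.1, is 78 bases long with an effective length of 10.7, and averaged 32782 ± 6919 TPM (SD, n = 15) from a mean of 1770 estimated counts. Rank 2, ENSPLAT00000010015.1, is 603 bases long with an effective length of 504, and averaged 29817 ± 5689 TPM (SD, n = 15) from 73749 estimated counts. Their TPM differed by a ratio of 1.099, whereas rank 2 had 41.67 times the counts and 47.03 times the effective length of rank 1. By counts rank 1 was thus 464th and rank 2 was 1st. The fixed fragment length given to the quantification program was longer than rank 1 itself. The effective length, TPM and place of rank 1 therefore depend on that setting, and no other setting was tried.

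Rank 3, ENSPLAT00000015846.1, is 126 bases long with an effective length of 30.7. It averaged 26086 ± 3173 TPM (SD, n = 15) from a mean of 3968 estimated counts, and its place, too, depends on the fixed fragment length. Rank 4, ENSPLAT00000024774.1, is 582 bases long and averaged 17326 ± 2833 TPM (SD, n = 15) from a mean of 41167 estimated counts. Rank 5, ENSPLAT00000026332.1, of 642 bases, averaged 11127 ± 12821 TPM (SD, n = 15). Its SD exceeded its mean, unlike in the other 4, and its values are given in full further on.

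The medians of the 3 highest transcripts differed between the contexts, though not all in the same direction. ENSPLAT00000008376.1 had a lowest, median and highest value of 22616, 34186 and 38881 TPM in male-interaction females, against 24182, 26574 and 44088 TPM in female-interaction females. For ENSPLAT00000010015.1 the values were 21438, 27215 and 40663 TPM in male-interaction females and 24880, 31336 and 39769 TPM in female-interaction females. ENSPLAT00000015846.1 lay at 23075, 27392 and 33932 TPM in male-interaction females and 21529, 24553 and 25869 TPM in female-interaction females. In all 3 the contexts overlapped.

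Members were short transcripts. Their median length was 664.5 bases (78 to 3281), against 1011 bases in the next 200 and 1782 bases over all tested transcripts. Under 300 bases were 22 members (11.0%) and 2.7% of the tested transcripts, and 1000 bases or more were 64 members (32.0%) and 74.1% of the tested transcripts. The effective length was a median of 0.851 of the full length in members and 0.944 over all tested transcripts.

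The short members weighed far more in TPM than in reads. The 8 members under 200 bases held 17.2% of the members' TPM and 0.734% of their estimated counts in the median female. Of all TPM in a library these 8 took 5.49% to 8.43%, and of all counts 0.116% to 0.189%. Their ranks and shares of TPM rest on effective lengths that depend on the fixed fragment length. The 64 members of 1000 bases or more held 20.9% of the members' TPM and 53.4% of their counts. The class between, 300 to under 1000 bases with 114 members, held 53.9% of TPM and 43.5% of counts.

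**Figure D2:**
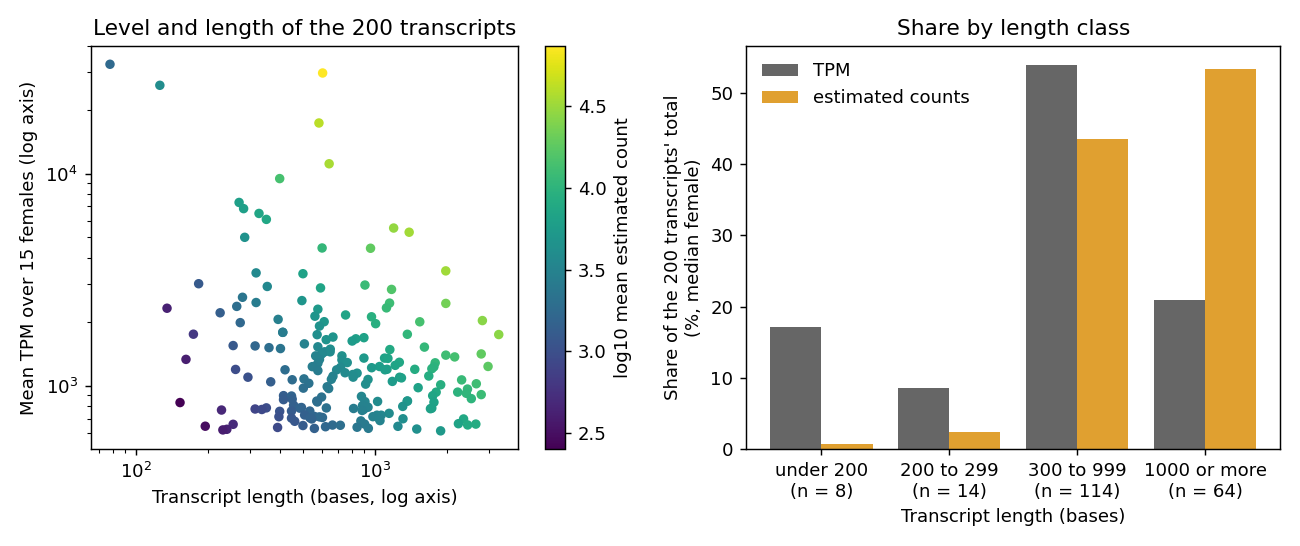
Left, mean TPM over 15 females against transcript length in bases, both on log axes, with 1 point for each of the 200 transcripts coloured by the log10 of its mean estimated count. Right, the share (%) of the transcripts' summed TPM (grey) and summed estimated counts (orange) in each length class in the median female, where the 8 transcripts under 200 bases hold 17.2% of TPM and 0.734% of counts.

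At a given TPM the colours in the plot of level against length run from few counts at the short end to many at the long end. Ranked by mean counts, each scaled to its library's total, instead, 115 members were among the top 200, and 14 members were beyond rank 1000, 10 of them under 300 bases. The lowest, ENSPLAT00000027620.1 of 153 bases, ranked 6175th by counts with a mean of 252 estimated counts per female.

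Reads shared between similar transcripts can be split by the quantification program. In 141 members (70.5%) the estimated count was whole, to within 1e-06, in every female, and so it was in 10841 of the 21671 tested transcripts. A single pair of members had nearly equal estimated counts throughout. ENSPLAT00000005271.1 and ENSPLAT00000020302.1, ranks 44 and 45, are both 411 bases long, and their estimated counts differed by less than 0.5 in every female. Each averaged 1784 ± 420 TPM (SD, n = 15) from 2686 estimated counts, so their individual levels are uncertain. How well the other members without whole counts were separated from similar transcripts was not examined.

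Levels of the members varied less between females than those of most transcripts. The SD of log2(TPM + 1) over the 15 females had a median of 0.256 in members, 0.248 in the next 200 and 0.401 over all tested transcripts. The coefficient of variation of TPM had a median of 17.9% in members and 30.3% over all tested transcripts. The highest female was less than 2 times the lowest in 126 members (63.0%), against 24.3% of all tested transcripts. The next 200 were thus as even as the members, and the low spread was shared with them.

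Counting error is small for transcripts with many reads. The SD that Poisson counting alone would give had a median of 0.0250 over the members, whose observed SD was a median of 10.07 times this value, against 2.16 times over all tested transcripts. The counting SD was largest, 0.245, in ENSPLAT00000014083.1, which fell to 7 estimated counts in 1 female.

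**Figure D3:**
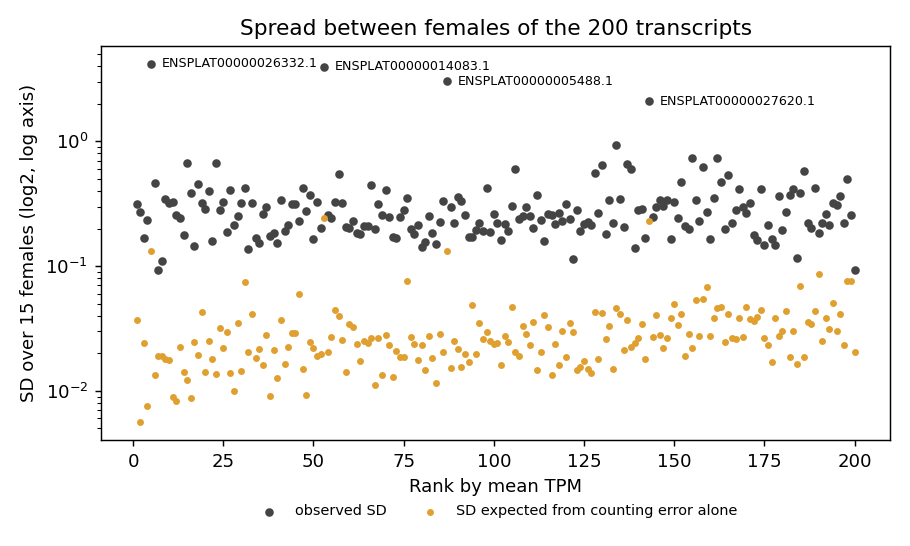
SD of log2(TPM + 1) over the 15 females (dark points, log axis) for each of the 200 transcripts in order of mean TPM, with the SD expected from counting error alone (orange points). An SD above 1 was seen in 4 transcripts, labelled by name, and in the other 196 it was at most 0.93.

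The evenest member was ENSPLAT00000019536.1, rank 200, with an SD of 0.0925 on the log2 scale. It lay at 527.7, 607.0 and 649.0 TPM (lowest, median and highest) in male-interaction females, and at 562.8, 614.6 and 698.1 TPM in female-interaction females. Next came ENSPLAT00000024224.1, rank 7, which is 270 bases long and had an SD of 0.0937 on the log2 scale. It lay at 6782, 7082 and 8308 TPM in male-interaction females and at 6710, 7355 and 7955 TPM in female-interaction females. Such evenness was seen in the least and in one of the most abundant of the 200 transcripts.

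At the other end, 4 members (2.0%) had an SD above 1 on the log2 scale, against 2901 (13.4%) of all tested transcripts. ENSPLAT00000026332.1, rank 5, had the largest SD, 4.19. It was at 10.1, 12231 and 16950 TPM (lowest, median and highest) in male-interaction females and at 5.07, 5128 and 47130 TPM in female-interaction females. The highest and the lowest female both came from the female-interaction context.

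ENSPLAT00000014083.1, rank 53 and 624 bases long, had an SD of 3.96 on the log2 scale, with 2.29, 989.8 and 6798 TPM in male-interaction females and 3.06, 529.0 and 4572 TPM in female-interaction females. ENSPLAT00000005488.1, rank 87 and 546 bases long, had an SD of 3.05, with 14.5, 1225 and 3152 TPM in male-interaction females and 11.5, 1171 and 2188 TPM in female-interaction females. Both ran from under 15 TPM to over 1000 TPM within each context. ENSPLAT00000027620.1, rank 143 and 153 bases long, had an SD of 2.10, with 128, 1370 and 2341 TPM in male-interaction females and 36.9, 134 and 1890 TPM in female-interaction females. Here, too, the contexts overlapped.

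In the first 3 of these the same 4 females were lowest. They were females 3 and 11 of the male-interaction context and females 9 and 17 of the female-interaction context. ENSPLAT00000026332.1 was at 5.07 to 1149 TPM in these 4 and at 3550 to 47130 TPM in the other 11, and ENSPLAT00000014083.1 at 2.29 to 9.80 TPM and 105 to 6798 TPM. For ENSPLAT00000005488.1 the gap was widest, with 11.5 to 19.5 TPM in the 4 females and 958 to 3152 TPM in the other 11, so the lowest of the 11 was 49.09 times the highest of the 4. These 4 females were singled out after the values were seen, and no test was made of them.

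Over the 15 females the levels of these 3 transcripts had Pearson's r of 0.906, 0.893 and 0.928 with each other on the log2 scale. The gap between the 4 females and the other 11 enters every r given here. These values therefore do not show whether the transcripts followed each other among the 11, which was not examined. The member next most like each was ENSPLAT00000007226.1, rank 186 and 2433 bases long, with r between 0.815 and 0.834. It was at 344 to 378 TPM in the 4 females and 485 to 1306 TPM in the other 11. These were the only members with all 4 females below the other 11, 4 of 200 (2.0%), and 31 of the tested transcripts (0.143%) showed that order. The 4 females were taken as the lowest in ENSPLAT00000026332.1, which therefore shows the order by construction. The 2 shares thus cannot show whether the order is more frequent among members. ENSPLAT00000027620.1 followed another order, with female 1 lowest and females 5 and 8 highest.

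**Figure D4:**
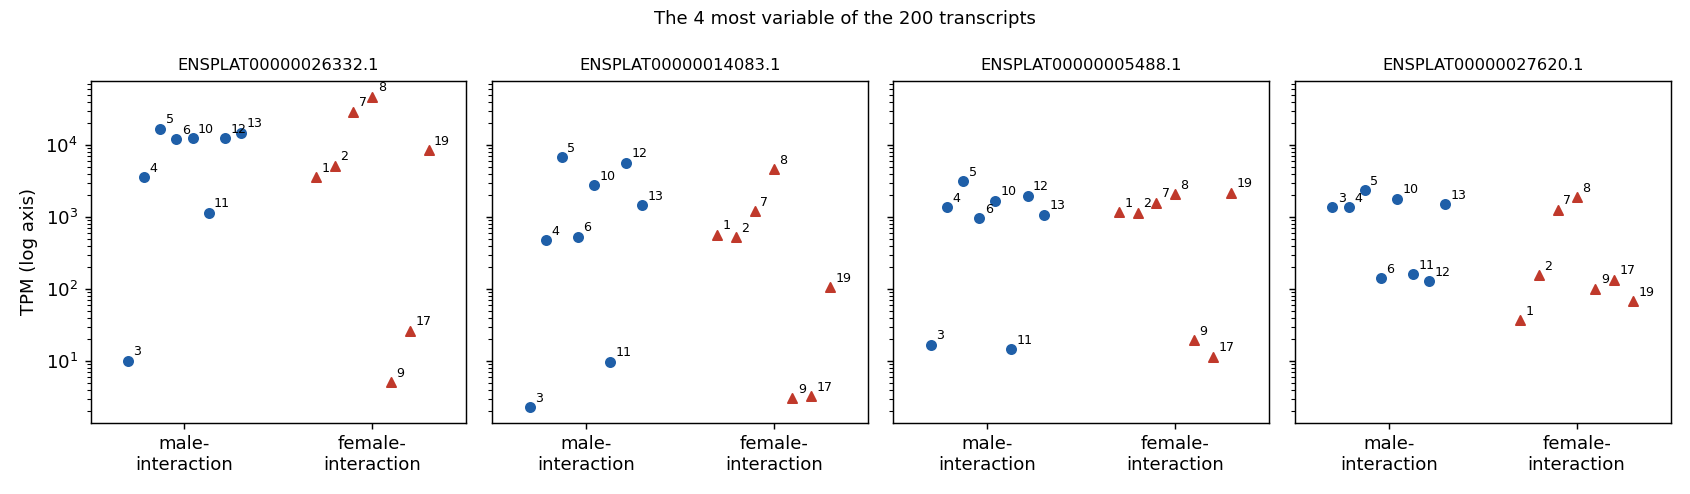
TPM (log axis) of the 4 most variable of the 200 transcripts in each female, male-interaction (circles) left of female-interaction (triangles), with the fish number beside each point. Females 3, 9, 11 and 17 are the lowest in the first 3 panels but not in the last.

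The plot of the variable transcripts shows low and high females in both contexts, and the fit gave no call. The log2 difference, male-interaction minus female-interaction, was 1.02 (SE 2.05) for ENSPLAT00000026332.1, 1.21 (SE 2.02) for ENSPLAT00000014083.1, 0.16 (SE 1.51) for ENSPLAT00000005488.1 and 1.47 (SE 1.02) for ENSPLAT00000027620.1. None passed the test described next. Together these 4 transcripts took between 0.0129% and 5.57% of a library's TPM.

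The social contexts were then compared to ask whether the kind of partner went with the level of the abundant transcripts. The test was limma with voom weights on the estimated counts, fitted to all 21671 transcripts, with p-values adjusted over all of them by the Benjamini-Hochberg method. Each female is a separate animal, so p-values measure the spread between females. They do not cover stimulus fish, which were used repeatedly, so the kind of partner cannot be told apart from these particular fish. Of the members, 0 passed an adjusted p of 0.05, as did 0.0% of all tested transcripts, and edgeR's quasi-likelihood test and DESeq2 also called 0 members. At an unadjusted p under 0.05 there was 1 member (0.5%), against 2.69% of all tested transcripts and 3 of the next 200, and leaving out 1 female gave 1 to 3 members, with 3 without any 1 of females 8, 9, 13 and 17 and 2 without any 1 of females 6, 7 and 11.

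That member was ENSPLAT00000018060.1, rank 126. It lay at 695, 841 and 978 TPM (lowest, median and highest) in male-interaction females and at 859, 990 and 1208 TPM in female-interaction females. The ranges overlapped, and the log2 difference was -0.29 (SE 0.10, limma, adjusted p = 1). In no member did all females of a context lie above all of the other, and in the tested transcripts 4 (0.0185%) were so separated. Over the 200 members the log2 difference had a median of 0.03 and a median size of 0.07, against -0.01 and 0.14 over all tested transcripts. The SE of a member's difference had a median of 0.15.

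The preference score of a female is the share of her stimulus-directed movements that went to the favoured fish, so the slopes below are log2 changes per unit of score. The favoured fish receives at least an even share, so scores of females differ by less than a whole unit. A slope is therefore larger in size than the change it gives between females. Within the male-interaction context 0 members passed the adjusted threshold with limma (smallest adjusted p = 0.305), against 0.00461% of all tested transcripts. edgeR called 0 members and DESeq2 called 5, against 1.26% of all transcripts in that tool. At an unadjusted p under 0.05 limma gave 44 members (22.0%), against 11.9% of all tested transcripts and 19.5% of the next 200. Positive slopes made up 6 of these (6.21% of all transcripts) and negative slopes 38 (5.68% of all transcripts). The size of the slope had a median of 0.61 in members and 0.84 over all tested transcripts, with a median SE of 0.53 and 0.87.

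The member with the smallest p was ENSPLAT00000031660.1, rank 11, with a slope of -1.88 (SE 0.47, limma, adjusted p = 0.305). It was called for fish number, a test described below, with a slope of 0.05 (SE 0.01, limma, adjusted p = 0.025). It was at 3495, 5179 and 7616 TPM in male-interaction females and at 4536, 5768 and 7435 TPM in female-interaction females. The median slope was -0.37 over the members and 0.12 over all tested transcripts. With limma on log2(TPM + 1), which drops the voom weights as well, these medians were -0.13 and 0.29. Single females moved the members' median, to -0.59 without female 12 and to -0.21 without female 13, where the 44 members at an unadjusted p under 0.05 had 16 positive and 28 negative slopes.

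Within the female-interaction context, too, 0 members passed for preference with limma (smallest adjusted p = 0.744), against 0.0% of all tested transcripts. edgeR called 0 members and DESeq2 called 1, against 0.305% of all transcripts in that tool. Unadjusted, limma gave 32 members (16.0%), against 6.39% of all tested transcripts and 35 (17.5%) of the next 200. Positive slopes made up 12 of these (4.04% of all) and negative slopes 20 (2.35% of all). This split was 15 and 13 without female 19 (5.44% of all tested transcripts in either direction) and 4 and 22 without female 17 (4.42%). On log2(TPM + 1) it was 20 and 23 (6.82%). Leaving out 1 female gave 22 to 46 members. The size of the slope had a median of 0.64 in members and 0.72 over all tested transcripts, with a median SE of 0.61 and 0.95. The smallest p belonged to ENSPLAT00000029062.1, rank 48, with a slope of -1.57 (SE 0.46, limma, adjusted p = 0.744), and with 1293, 1688 and 2296 TPM in the females of that context. This transcript, too, was called for fish number, with a slope of 0.05 (SE 0.01, limma, adjusted p = 0.0125).

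Whether the slopes on preference differed between contexts was tested in the same model. Of the members 0 passed with limma, edgeR or DESeq2 (smallest adjusted p in limma 0.999), as did 0.0% of all tested transcripts in limma. Unadjusted, limma gave 5 members (2.5%), a smaller share than the 3.07% of all tested transcripts. The count was 3 without any 1 of females 3, 5 and 17 (2.73%, 2.82% and 2.7% of all tested transcripts). It was 8 without female 12 (3.43% of all), 9 without female 19 (3.33% of all) and 10 without female 9 (3.54% of all). ENSPLAT00000005264.1, the last but 1 of the members, had the smallest p, with a difference of -2.01 (SE 0.57, limma, adjusted p = 0.999). It lay at 465, 642 and 789 TPM in male-interaction females and at 464, 581 and 739 TPM in female-interaction females.

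When fish number was added as a term, the members at an unadjusted p under 0.05 for preference numbered 12 for male-interaction females, against 5.36% of all tested transcripts, and 8 for female-interaction females, against 2.09%. The members' median slope was then -0.07 for male-interaction females. For female-interaction females it turned to 0.27, against -0.07 without that term, and 128 members had positive slopes against 95. With standard length added instead the counts were 17 members, against 5.83% of all tested transcripts, and 24 members, against 5.46%. How far preference, fish number and standard length each account for these slopes was not tested.

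Social affiliation is the time spent near either stimulus, and its slopes are log2 changes per 100 s. The study kept only females with high affiliation, so these slopes cover a restricted range of it. In the male-interaction context 0 members passed with limma, edgeR or DESeq2 (smallest adjusted p in limma 0.935), against 0.00461% of all tested transcripts in limma. Unadjusted, limma gave 7 members against 5.0% of all tested transcripts. This count rested on single females. Without female 12 it was 28, all with positive slopes, against 4.75% of all tested transcripts, without female 17 it was 12, against 5.62%, without female 3 it was 3, against 3.59%, and without female 6 it was 1, against 5.16%. ENSPLAT00000001270.1, rank 170, had the smallest p, with a slope of 0.26 (SE 0.10, limma, adjusted p = 0.935) and with 518, 720.5 and 994 TPM in male-interaction females.

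In the female-interaction context 0 members passed with limma, edgeR or DESeq2 (smallest adjusted p in limma 0.603), as did 0.0% of all tested transcripts in limma. Unadjusted, limma gave 26 members (13.0%), against 7.29% of all tested transcripts and 24 of the next 200. Positive slopes made up 25 of these (2.99% of all transcripts) and a negative slope 1 (4.31% of all transcripts). Slopes were above 0 in 186 members (93.0%), against 50.9% of all tested transcripts, with a median of 0.15 over the members and 0.01 over all. Positive slopes numbered 176 without TMM factors, 149 with limma on log2(TPM + 1) and 143 without female 17. The unadjusted count was 10 (5.92% of all tested transcripts) without female 19, which puts the members at 5% and so below all transcripts. Without female 17 it was 43 (8.16% of all tested transcripts). With limma on log2(TPM + 1) it was 9 members (9.29% of all tested transcripts), so the members were below all transcripts there too. With standard length as a term the unadjusted count was 51, 50 of them positive, against 9.31% of all tested transcripts. With fish number as a term it was 31, 29 of them positive, against 7.7%. In both fits 0 members passed the adjusted threshold.

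ENSPLAT00000024774.1, rank 4, had the smallest p for this slope. In female-interaction females it lay at 15476, 19334 and 23163 TPM, and its slope there was 0.28 (SE 0.09, limma, adjusted p = 0.603). It also had the smallest p for the difference between contexts, male-interaction minus female-interaction, at -0.43 (SE 0.12, limma, adjusted p = 0.796). In that comparison 0 members passed with limma, edgeR or DESeq2, as did 0.0% of all tested transcripts in limma, and 12 members had an unadjusted p under 0.05, against 6.09% of all. Without female 12 the count was 3, against 3.87% of all, and the members' median difference was 0.005 in place of -0.119, while without female 7 the count was 18, against 5.63% of all.

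Standard length, the body size of the fish, was fitted beside context, with slopes per 10 mm. With limma 0 members passed (smallest adjusted p = 0.112), as did 0.0% of all tested transcripts. edgeR called 0 members and DESeq2 called 15, against 1.49% of all transcripts in that tool. Unadjusted, limma gave 57 members (28.5%), against 15.6% of all tested transcripts and 71 of the next 200. Positive slopes made up 12 of these (7.47% of all transcripts) and negative slopes 45 (8.08% of all transcripts). The next 200 had 17 positive and 54 negative. The members' split was 24 and 37 without female 13 (15.4% of all tested transcripts in either direction) and 3 and 55 without female 17 (14.1%). On log2(TPM + 1) it was 24 and 39 (13.3%). Leaving out 1 female gave 44 to 69 members. The size of the slope had a median of 0.135 in members and 0.156 over all tested transcripts, with a median SE of 0.095 and 0.144. With fish number as a further term 5 members had an unadjusted p under 0.05, against 6.43% of all tested transcripts. The members' median slope then turned to 0.05, against -0.05 without that term, and 112 members had positive slopes against 77.

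ENSPLAT00000018675.1, rank 134, had the smallest p for standard length, with a slope of -1.02 (SE 0.20, limma, adjusted p = 0.112). It lay at 349, 692 and 1576 TPM in male-interaction females and at 298, 719 and 2118 TPM in female-interaction females. By fish number it was at 298 to 719 TPM in females 1 to 8 and at 756 to 2118 TPM in females 9 to 19, with no overlap. It was called for fish number, with a slope of 0.15 (SE 0.03, limma, adjusted p = 0.0105).

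Fish number was the only measure that called members in the limma fits. The slope is the log2 change per step of 1 in the number, with context in the model. Of the members 29 (14.5%) passed an adjusted p of 0.05, against 2.62% of all tested transcripts and 27 (13.5%) of the next 200. Upwards went 26 of them (1.44% of all transcripts) and downwards 3 (1.18% of all transcripts). The share was therefore above that of all transcripts but close to that of the next 200. The split by direction moved with single females and settings. Without female 19 limma called 15 members upwards and 9 downwards, with 743 calls over all tested transcripts, and 17 of the 29 were kept. On log2(TPM + 1) limma called 19 upwards and 6 downwards, with 652 calls over all. edgeR called 23 members, all among the 29 (2.18% of all transcripts in that tool), and DESeq2 called 53, which included the 29 (6.5% of all transcripts in that tool). At an unadjusted p under 0.05 limma gave 77 members (38.5%) against 18.4% of all tested transcripts and 85 (42.5%) of the next 200. The size of the slope had a median of 0.0206 in members and 0.0240 over all tested transcripts. Its SE had a median of 0.0127 in members and 0.0212 over all. The members' slopes were therefore not larger in the median, while their SEs were smaller.

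The 26 that rose had slopes of 0.04 to 0.15 per number, with a median of 0.06. Their mean levels lay between 698 and 9472 TPM and their median length was 1035 bases. ENSPLAT00000002433.1, rank 98, was at 775, 897 and 1008 TPM (lowest, median and highest) in females 1 to 8 and at 1172, 1398 and 2201 TPM in females 9 to 19, without overlap. Its slope was 0.08 (SE 0.01, limma, adjusted p = 0.00544). ENSPLAT00000019590.1, rank 168, was at 445, 530 and 642 TPM in females 1 to 8 and at 837, 911 and 1026 TPM in females 9 to 19, again without overlap, with a slope of 0.08 (SE 0.01, limma, adjusted p = 0.00953).

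The 3 that fell with number had mean levels between 623 and 894 TPM and a median length of 447 bases. ENSPLAT00000024598.1, rank 130, was at 1046, 1169 and 1401 TPM in females 1 to 8 and at 395, 502 and 889 TPM in females 9 to 19, without overlap, with a slope of -0.10 (SE 0.01, limma, adjusted p = 0.00497). ENSPLAT00000023696.1, rank 161, was at 714, 849 and 1129 TPM in females 1 to 8 and at 511, 599 and 776 TPM in females 9 to 19, where the ranges overlapped. Its slope was -0.05 (SE 0.01, limma, adjusted p = 0.038), and the call was lost without any 1 of females 1, 2, 3, 4, 6, 7, 12 and 17.

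**Figure D5:**
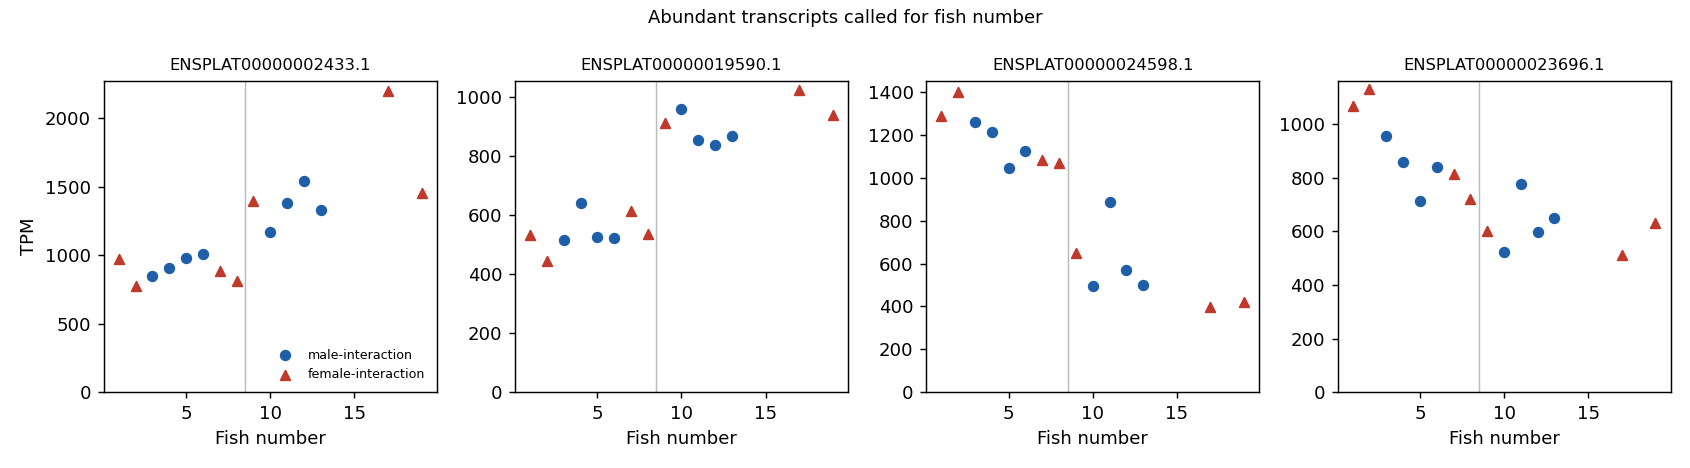
TPM of 4 of the 200 transcripts against fish number, with circles for male-interaction and triangles for female-interaction females and the vertical line between females 1 to 8 and 9 to 19. The first 2 panels show transcripts that rose with number and the last 2 transcripts that fell, and in all but the last panel the females left and right of the line do not overlap.

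The plot against fish number divides the females between 8 and 9. The division was made after the data were seen, and it puts 4 male-interaction and 4 female-interaction females on the low side and 4 and 3 on the high side. Of the 200 members 29 (14.5%) did not overlap between females 9 to 19 and females 1 to 8, 23 of them higher in females 9 to 19 (0.849% of all transcripts) and 6 lower (0.937% of all transcripts). The next 200 held 26 such transcripts (13.0%) and all tested transcripts 387 (1.79%). Of the 26 called upwards 17 were so separated, and of the 3 called downwards 1.

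The number of calls moved with the model and with single females. With standard length as a term 0 members passed for fish number, as did 0 of all tested transcripts, while 47 members had an unadjusted p under 0.05, against 8.79% of all tested transcripts. The median slope over the members was 0.0165 per number with that term and 0.0113 without it, and 144 members had positive slopes against 133. That median mixes rising and falling members, so it does not show whether the called slopes shrank. Without that term, limma called 567 of all tested transcripts when every female was kept. Without female 2 it called 10 members and 160 of all, and without female 3 it called 10 and 138. These counts were 11 and 243 without female 1, and 16 and 355 without female 4. They were 18 and 341 without female 12, and 19 and 373 without female 13. They were higher without female 9, at 36 and 692, while without female 17 they were 34 and 527. Leaving out any other female gave 20 to 26 members. What the fish number stands for is not given in the sources used here, and its part in these differences beside body size and preference was not tested.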

How the data were processed

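Whole-brain mRNA of each female was sequenced single-end. The authors trimmed the reads (cutadapt, checked with FastQC) and pseudoaligned them with Kallisto 0.43.0 to the Ensembl cDNA of *P. latipinna*, with a fixed fragment length, on which the effective length of short transcripts depends. They deposited for each transcript an estimated count, which need not be whole, and a TPM value, neither scaled further between libraries. The study summed counts by gene, whereas transcripts were kept here. Sequences, gene names and marker lists were not analysed here.

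Members were ranked by mean TPM over 15 females. Members, lists and tests were chosen with earlier results of these data known. Estimated counts were rounded, scaled with TMM factors and fitted with voom and limma 3.58.1 in R 4.3.3, over the 21671 transcripts with TPM above 2 in 3 or more females. Models held context, context with preference or affiliation within it, or context with standard length or fish number. Preference, affiliation and standard length came from the study's supplementary table of behaviour, and fish number from the labels. Calls used a Benjamini-Hochberg adjusted p under 0.05. The study's empirical rate from shuffled labels was not rebuilt.

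Spread was the SD of log2(TPM + 1), computed from the deposited TPM. The transcripts named were the 5 highest, the 2 evenest and 2 most variable, the 2 transcripts on either side of the limit, and for each test up to 2 called in each direction or else the smallest p. The other transcripts named were chosen after their values were seen. Scripts were tested on simulated counts. Intervals for counting error cover sampling of reads only, since reads carry no molecular identifiers. Alternatives used edgeR 4.0.16, DESeq2 1.42.0, other scalings, filters, pseudocounts, rankings and covariates, and each female left out. Further tools were Python 3.11.15, NumPy 2.4.6, pandas 2.3.3 and Matplotlib 3.10.9.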

Additional observations from a re-analysis of the deposited data

Results flagged for a closer look

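Of 44 groups checked among the named transcripts, 4 had a female far from all others of her context by Dixon's criterion. Chance gives about 1 in 20. Over all 200 members the criterion was met in 8 male-interaction groups (4.0%) and in 2 female-interaction groups (1.0%), which is not above that rate. Female 6 of the male-interaction context stood high for ENSPLAT00000010015.1, at 40662.6 TPM, and low for ENSPLAT00000019536.1, at 527.678 TPM. In the female-interaction context female 9 stood high for ENSPLAT00000001270.1, at 958.075 TPM, and female 8 for ENSPLAT00000014083.1, at 4572.15 TPM.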

How the results depend on the processing

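For fish number the count of 29 members called became 53 with DESeq2 and 0 with standard length as a term, and ranged from 10 to 36 when 1 female was left out. It lay between 23 and 32 with edgeR, other scalings, filters, pseudocounts, rounding and quality weights. Calls over all tested transcripts, 567 in the main fit, ranged from 138 to 743 when 1 female was left out. With edgeR and those other settings they ranged from 472 to 652. DESeq2 called 5 members for preference in the male-interaction context, 1 for preference in the female-interaction context and 15 for standard length, where limma called 0. The other tests for context, preference and affiliation called 0 members under every alternative run. ENSPLAT00000031660.1 for male-interaction preference and ENSPLAT00000018675.1 for standard length were called by DESeq2. All 4 transcripts named for fish number lost their call with standard length as a term. The median slope over the members was 0.0165 with that term and 0.0113 without it. That median mixes rising, falling and uncalled members, so it cannot show whether the slopes of the 4 shrank. The cause of the lost calls was not tested. Ranking by counts scaled to the library total gave shares of 30.9% of TPM and 23.0% of counts and kept 115 members, and a minimum of 300 bases gave 31.2% of TPM. The top 100 held 32.3% of TPM and 13.2% of counts, and the top 400 held 49.0% and 26.4%. The median over members of the female-interaction preference slopes turned from -0.07 in limma and voom to 0.06 without TMM factors, 0.05 with log2(TPM + 1), 0.27 with fish number as a term, 0.02 without female 9 and 0.07 without female 19. The smallest estimated count of a member in any library was 7. No paired analysis was possible because each female has her own number and the contexts share none.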
